A study of Mus musculus with 16 samples.

Results

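Matrix metalloproteinases (MMPs), the ADAMTS proteases and the tissue inhibitors of metalloproteinases (TIMPs) were examined in whole lung of newborn mice. All features of the array with a gene symbol that starts with Mmp, Adamts or Timp followed by a digit were taken, which leaves out the ADAMTS-like genes. The rule found 80 of the 62976 features, for 46 genes. There were 23 Mmp, 19 Adamts and 4 Timp genes, and 45 of them were among the 20166 genes tested. Mmp1a did not pass the filter on low signal.

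MMPs are zinc-dependent proteases that are made as inactive precursors and, once activated, cleave collagens, elastin and other matrix proteins. Some are secreted and others are anchored in the cell membrane, where Mmp14 activates the precursor of Mmp2. ADAMTS proteases are secreted enzymes with thrombospondin repeats that trim procollagens or cleave proteoglycans such as versican and aggrecan. TIMPs bind the active site of MMPs and block it, and Timp3 also blocks ADAMTS proteases. In the newborn mouse lung the matrix is remodelled while the air sacs are divided into alveoli, and mice that lack Mmp14 form too few of them.

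Lungs came from pups at postnatal day 3 in 4 groups with 4 arrays each. Wild-type pups and pups labelled Fgf10+/-, which carry 1 disrupted copy of the gene for the growth factor Fgf10, were either kept in normoxia or put in a chamber with 85% oxygen from postnatal day 0 to postnatal day 3. The sample was a homogenate of the lung, so the signal is a mean over all its cells. In such bulk samples fewer cells of a type and less RNA per cell cannot be told apart. The labels do not give the strain, the litters or whether a sample pools pups, so the p-values speak only of the spread among the 16 arrays, which may be technical. Values are log2 intensities as deposited by the authors, and a difference of 1 is a doubling. A gene was called changed where limma's moderated test gave a Benjamini-Hochberg adjusted p under 0.05 over all genes tested. The number of arrays limits the precision.

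Arrays of a group correlated at 0.974 to 0.983. The Fgf10 signal averaged 7.80 in wild-type normoxia, 7.85 in wild-type hyperoxia, 8.28 in the arrays labelled Fgf10+/- in normoxia and 7.64 in those labelled Fgf10+/- in hyperoxia. A lower level under the Fgf10+/- label was thus not measured (differences of 0.48, adjusted p = 0.334, in normoxia and -0.21, adjusted p = 0.835, in hyperoxia). With hyperoxia Fgf10 fell by 0.64 (adjusted p = 0.0346) under the Fgf10+/- label, against a difference of 0.056 (adjusted p = 0.897) in wild type, and the interaction was -0.69 (adjusted p = 0.737). The position of the feature relative to the disrupted part of the gene is unknown here, and every direction by genotype below rests on the labels. Alveolar type 2 markers were high on every array, with list means of 13.10 to 13.76. Replicate 4 of wild-type normoxia stood apart. Its cartilage marker list had a mean of 8.96 against 4.38 to 4.55 on the other arrays of its group, and its skeletal muscle list had a mean of 8.72 against 4.64 to 5.18. Without this array 8 members were called in wild-type hyperoxia, with a background of 15.8% of all genes, and all 7 calls given below were kept. Arrays were taken as male where the Y-linked gene Eif2s3y read above Xist. Male arrays numbered 1, 2, 2 and 1 of 4 in wild-type normoxia, wild-type hyperoxia, Fgf10+/- normoxia and Fgf10+/- hyperoxia.

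By level, 26 of the 46 genes lay above 4.50, the median of all features on an array, in their mean over the 16 arrays. Of these, 21 were above it on every array, and Mmp19 was above it on 11, Mmp9 and Adamts12 on 12, Timp4 on 13 and Mmp8 on 15. The other 20 genes had means of 3.13 to 4.34 and are marked as near background: Mmp1a, Mmp1b, Mmp3, Mmp7, Mmp10, Mmp12, Mmp13, Mmp16, Mmp20, Mmp21, Mmp24, Mmp25, Mmp27, Mmp28, Adamts3, Adamts6, Adamts13, Adamts16, Adamts18 and Adamts20. They include the classical stromelysins Mmp3 and Mmp10, the matrilysin Mmp7, the macrophage elastase Mmp12 and the collagenase Mmp13. All 4 TIMPs lay above the median. A run of 10 Mmp genes fills one stretch of mouse chromosome 9 with no other protein-coding gene between them in RefSeq (GRCm38.p6), and 9 of the 10 were near background. The exception was Mmp8, the neutrophil collagenase.

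**Figure D1:**
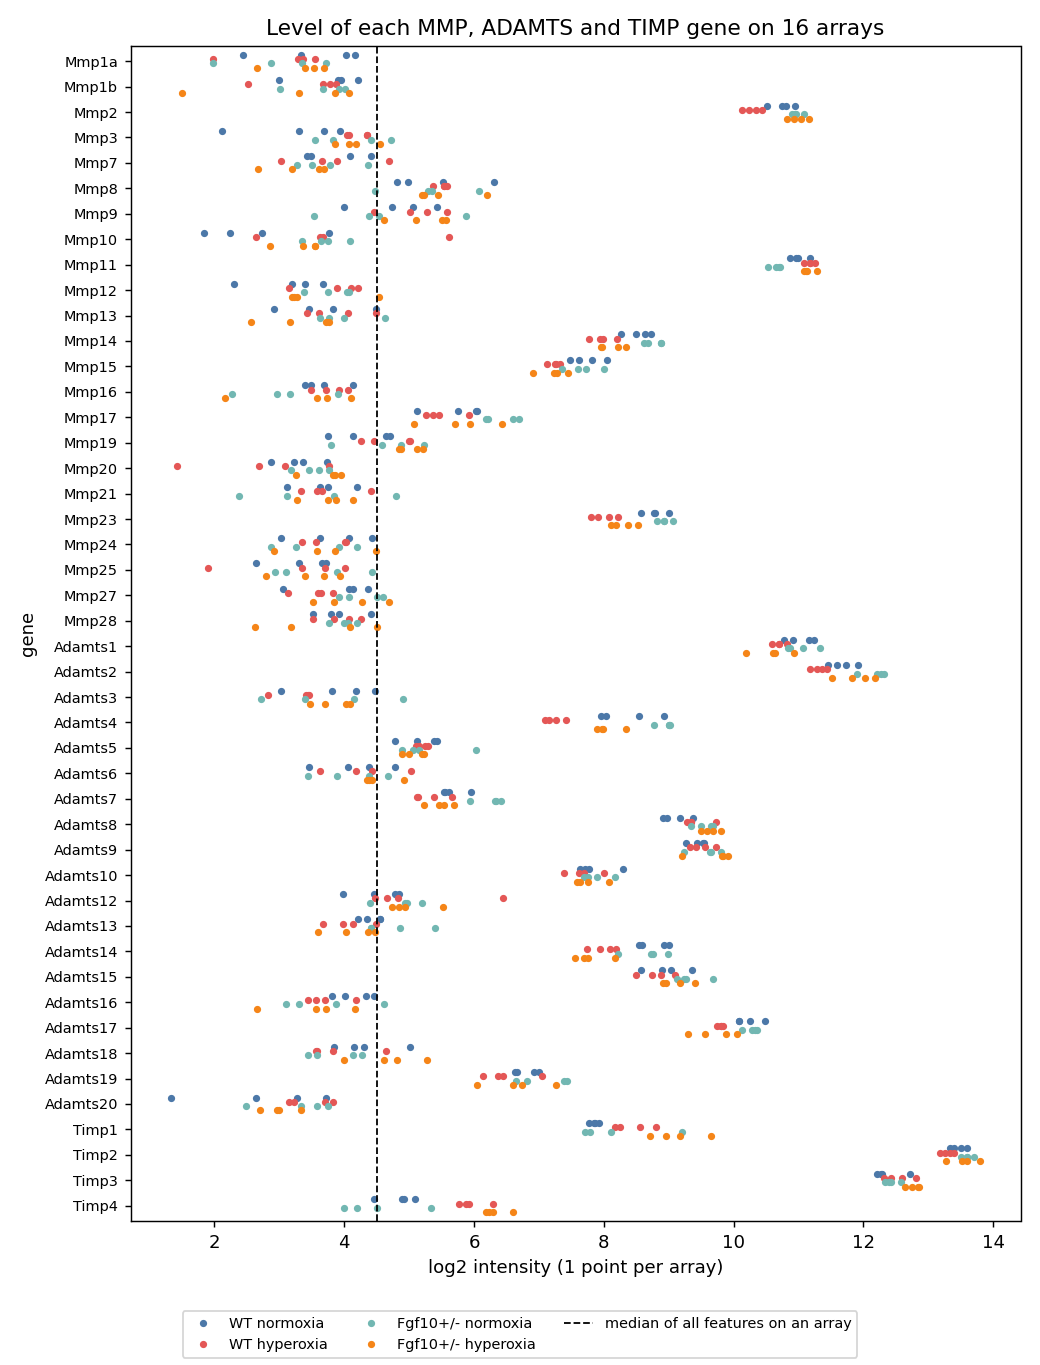
Log2 intensity (horizontal axis) of each of the 46 genes (vertical axis), with 1 point per array coloured by group and a dashed line at 4.50, the median of all features on an array. The 20 genes near background cluster at or left of the line, while Mmp2, Mmp11, Adamts2, Timp2 and Timp3 lie far right of it on all 16 arrays. Signals of different features depend on the probe as well as on the RNA, so the positions do not rank the genes.

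Promoters are shown for Timp4, which rose in hyperoxia in both genotypes, for Timp1, which was called higher in Fgf10+/- alone and not under every alternative, and for Mmp14 and Adamts14, which fell in both genotypes, so that the letters upstream of these genes can be read side by side. Each is the 250 bases before the gene's start in RefSeq (GRCm38.p6), 5′ to 3′ on the gene's own strand. Capitals mark matches, on either strand, to the GC box GGGCGG, the CCAAT box CCAAT, the AP-1 site TGANTCA or the TATA box TATAAA, and overlapping matches run together. The Timp4 promoter is at chr6:115252206-115252455 on the minus strand, the Timp1 promoter at chrX:20869916-20870165 on the plus strand, the Mmp14 promoter at chr14:54431348-54431597 on the plus strand and the Adamts14 promoter at chr10:61273420-61273669 on the minus strand.
Timp4: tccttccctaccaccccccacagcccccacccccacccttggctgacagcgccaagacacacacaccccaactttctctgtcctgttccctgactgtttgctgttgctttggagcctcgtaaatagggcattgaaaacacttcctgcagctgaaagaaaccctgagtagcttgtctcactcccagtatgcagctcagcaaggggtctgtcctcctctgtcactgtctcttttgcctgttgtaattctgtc
Timp1: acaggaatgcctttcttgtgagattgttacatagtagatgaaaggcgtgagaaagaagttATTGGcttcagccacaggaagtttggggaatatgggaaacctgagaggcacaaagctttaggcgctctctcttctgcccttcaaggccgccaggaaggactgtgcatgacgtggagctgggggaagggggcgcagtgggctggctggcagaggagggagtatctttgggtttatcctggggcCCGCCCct
Mmp14: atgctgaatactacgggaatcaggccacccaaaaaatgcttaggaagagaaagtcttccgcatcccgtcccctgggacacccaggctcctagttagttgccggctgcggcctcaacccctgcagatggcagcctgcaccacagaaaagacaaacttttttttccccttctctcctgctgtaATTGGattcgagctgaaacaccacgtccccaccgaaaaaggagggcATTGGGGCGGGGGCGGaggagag
Adamts14: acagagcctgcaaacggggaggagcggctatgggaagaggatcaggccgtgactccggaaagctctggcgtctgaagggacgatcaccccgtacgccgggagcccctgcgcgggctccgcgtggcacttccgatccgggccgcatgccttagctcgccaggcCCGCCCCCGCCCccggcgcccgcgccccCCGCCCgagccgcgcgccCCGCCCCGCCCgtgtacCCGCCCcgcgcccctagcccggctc

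The Timp4 window held none of the 4 motifs, and 53.6% of its bases were G or C. The Timp1 window held 1 GC box and 1 CCAAT box with 54.4% G or C. The Mmp14 window held 2 GC boxes and 2 CCAAT boxes with 55.2% G or C, and the Adamts14 window held 6 GC boxes with 76.4% G or C. Over all 32851 promoters of the table the median was 52.4% G or C. GC boxes were in 32.7% of them, CCAAT boxes in 33.8%, AP-1 sites in 6.75% and TATA boxes in 12.4%. The table held 35 promoters for 32 of the members, of which 16 had a GC box, 8 a CCAAT box, 8 an AP-1 site and 9 a TATA box. A match is a string of letters in these windows and was not set against any binding data.

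In hyperoxia 1 of 45 members rose and 6 fell in wild-type lung, and 3 rose and 7 fell in lung labelled Fgf10+/-. The balance of rises and falls over the members was not tested. The share called, 15.6% in wild type and 22.2% in Fgf10+/-, was near that of all genes, of which 19.1% and 23.8% were called. Rises were 10.3% and 13% of all genes, and falls 8.75% and 10.7%. The groups did not overlap for 11 members in wild type (24.8% of all genes) and for 9 in Fgf10+/- (24.9% of all genes). The median difference over members was -0.09 in wild type and -0.19 in Fgf10+/-, against 0.03 over all genes in each. By family, 1 of the 4 TIMPs rose in wild type (Timp4) and 2 in Fgf10+/- (Timp4 and, less firmly, Timp1), 2 and 4 of the 19 ADAMTS genes fell, and 4 and 3 of the 22 tested MMPs fell. No ADAMTS gene passed the test in the rising direction, while the MMP gene Mmp11 rose in Fgf10+/- by its tested feature.

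The comparisons in the 2 genotypes have no arrays in common. Both called Timp4, Mmp14, Mmp15, Mmp23, Adamts4 and Adamts14, in the same direction, which is 85.7% of the wild-type calls and 60% of the Fgf10+/- calls. Over all genes the shared calls were 74.6% and 59.9%. The sign of the difference was the same for 34 of 45 members (75.6%, against 72.6% of all genes) and for 24 of the 26 members above the median (92.3%, against 81% of all genes above it). In all, 11 members were called in at least 1 genotype, 3 of them higher and 8 lower. The 19 tested genes near background gave no call by limma in either genotype, and 2 of them had an unadjusted p under 0.05 in each (31.1% and 34.2% of all genes).

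**Figure D2:**
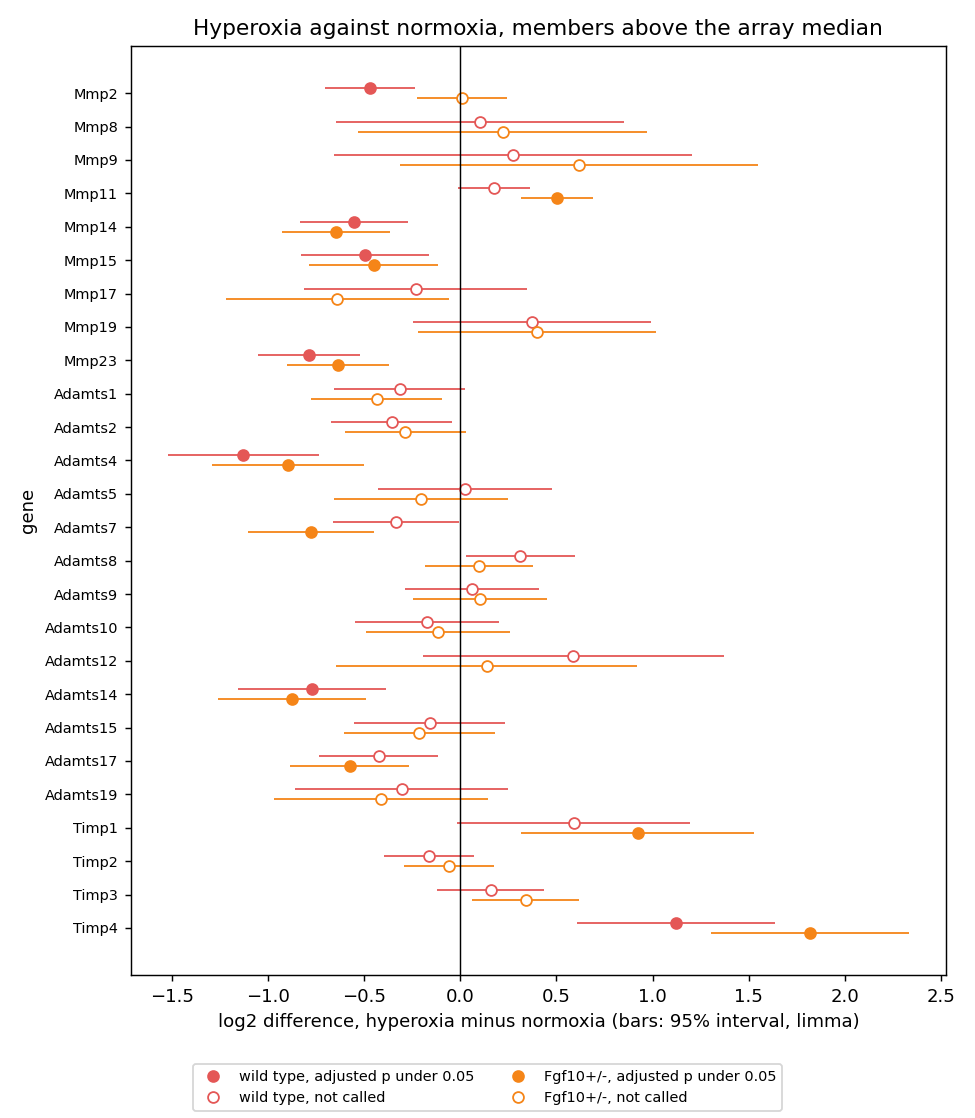
Log2 difference of hyperoxia minus normoxia (horizontal axis, bars are limma's 95% intervals) for the 26 genes above the array median (vertical axis), in wild type (red) and in pups labelled Fgf10+/- (orange), with 4 arrays per group. Filled points passed an adjusted p of 0.05. Timp4 lies far to the right of 0 in both genotypes, and Adamts4, Adamts14, Mmp23, Mmp14 and Mmp15 lie to the left in both.

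Among the inhibitors, Timp4, the TIMP known for its narrow tissue range and its high level in heart, rose in both genotypes. In wild type it read 5.10, 4.89, 4.92 and 4.46 on the normoxia arrays and 5.77, 5.87, 5.92 and 6.29 on the hyperoxia arrays. With the Fgf10+/- label it read 5.33, 4.50, 4.19 and 4.00 in normoxia and 6.18, 6.60, 6.30 and 6.23 in hyperoxia. Every hyperoxia array was above every normoxia array, and 3 of the 8 normoxia values lay under the median of the array, close to background. The log2 difference was 1.12 (SE 0.24, adjusted p = 0.00449) in wild type and 1.82 (SE 0.24, adjusted p = 0.000111) in Fgf10+/-. No fold is given, since the Fgf10+/- normoxia arrays average close to the 4.50 taken as the mark of background. The differences in both genotypes were not shown to be unequal (interaction 0.70 (SE 0.34, adjusted p = 0.756)).

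Timp1, an inducible and broadly acting inhibitor, was called in the Fgf10+/- arrays and missed the threshold in wild type. Its wild-type values were 7.85, 7.78, 7.92 and 7.87 in normoxia and 8.80, 8.25, 8.56 and 8.18 in hyperoxia. In Fgf10+/- they were 9.20, 7.79, 8.11 and 7.70 in normoxia and 9.64, 8.96, 8.72 and 9.18 in hyperoxia. The wild-type groups did not overlap, whereas replicate 1 of Fgf10+/- normoxia lay among the hyperoxia arrays. The difference was 0.59 (SE 0.28, adjusted p = 0.172) in wild type and 0.92 (SE 0.28, adjusted p = 0.0281) in Fgf10+/-, where the exact two-sided permutation p was 0.114. The Fgf10+/- call was lost in a fit of those 8 arrays alone (adjusted p = 0.111), and the wild-type difference passed in a fit of its own 8 arrays (adjusted p = 0.0318). Leaving out replicate 2, 3 or 4 of Fgf10+/- normoxia or replicate 1 or 4 of Fgf10+/- hyperoxia also ended the call, at adjusted p of 0.0565 to 0.0901.

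Timp2 and Timp3 were not called. Timp2 both inhibits MMPs and, bound to Mmp14, helps to activate the Mmp2 precursor. It read 13.34, 13.50, 13.39 and 13.60 in wild-type normoxia, 13.39, 13.26, 13.18 and 13.33 in wild-type hyperoxia, 13.50, 13.60, 13.60 and 13.71 in Fgf10+/- normoxia and 13.27, 13.59, 13.52 and 13.80 in Fgf10+/- hyperoxia. The groups overlap in both genotypes, and the differences were -0.16 (SE 0.11, adjusted p = 0.345) and -0.06 (SE 0.11, adjusted p = 0.766). A dimmer second Timp2 feature did fall, by 0.51 (adjusted p = 0.0206 in a fit of all features) in wild type and by 0.48 (adjusted p = 0.0222) in Fgf10+/-, so the 2 features of this gene disagree.

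Timp3, the TIMP that stays bound to the matrix and also blocks ADAMTS proteases, read 12.29, 12.72, 12.21 and 12.27 in wild-type normoxia and 12.42, 12.59, 12.80 and 12.31 in wild-type hyperoxia. The Fgf10+/- arrays gave 12.58, 12.43, 12.33 and 12.39 in normoxia and 12.65, 12.75, 12.86 and 12.84 in hyperoxia. The wild-type groups overlapped and the Fgf10+/- groups did not. Its differences of 0.16 (SE 0.13, adjusted p = 0.463) and 0.34 (SE 0.13, adjusted p = 0.0752) both missed the threshold. The Fgf10+/- difference passed with the filter at the 50th percentile (adjusted p = 0.0483). It also passed with trend and robust variance (0.0192) and with sex as a covariate (0.0252).

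**Figure D3:**
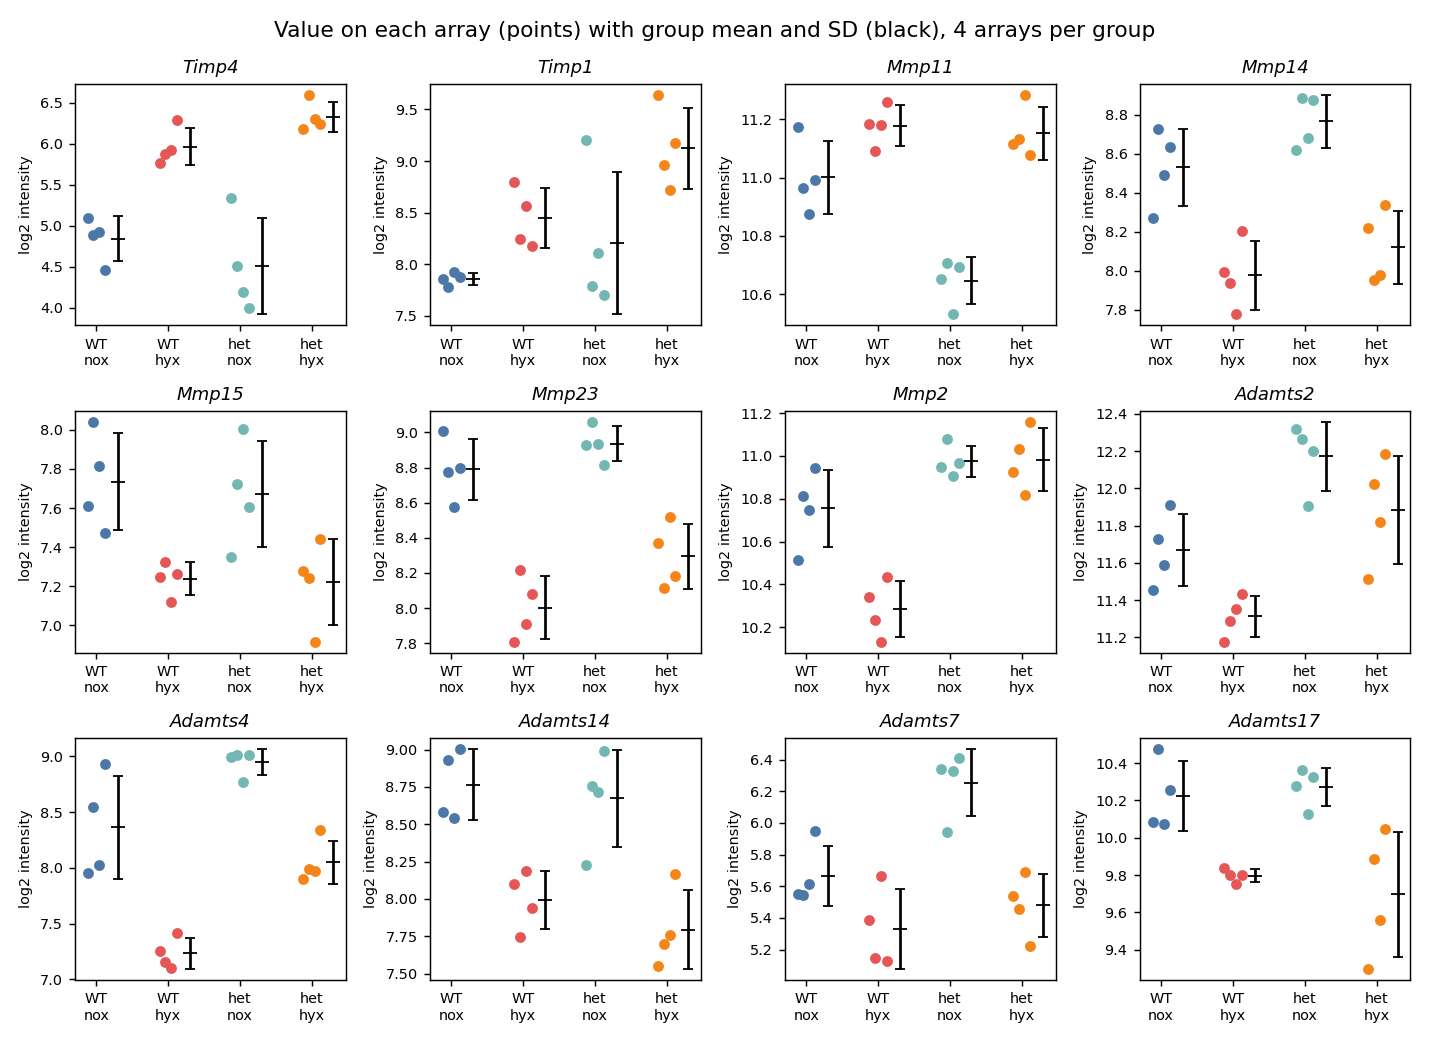
Log2 intensity (vertical axis, a scale of its own in each panel) on each array (points) with the group mean and SD (black), for the 12 genes called in at least 1 comparison, in wild-type normoxia (WT nox), wild-type hyperoxia (WT hyx), Fgf10+/- normoxia (het nox) and Fgf10+/- hyperoxia (het hyx), 4 arrays each. Timp4 is higher on all hyperoxia arrays, Mmp14, Mmp23 and Adamts4 are lower within each genotype, and Mmp2 is lowest on the wild-type hyperoxia arrays.

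The membrane-anchored MMPs that were called all fell. Mmp14, which cleaves collagen at the cell surface and activates Mmp2, read 8.27, 8.73, 8.49 and 8.64 in wild-type normoxia and 7.99, 7.94, 7.78 and 8.20 in wild-type hyperoxia. Its Fgf10+/- values were 8.62, 8.89, 8.68 and 8.88 in normoxia and 8.22, 7.95, 7.98 and 8.34 in hyperoxia. All 4 hyperoxia values were below all 4 normoxia values in each genotype. Mmp14 fell by 0.55 (SE 0.13, adjusted p = 0.00833) and by 0.65 (SE 0.13, adjusted p = 0.00243). Its promoter, printed above, holds 2 GC boxes and 2 CCAAT boxes.

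Mmp15, a second membrane-type enzyme, read 7.61, 8.04, 7.82 and 7.47 in wild-type normoxia and 7.25, 7.32, 7.12 and 7.26 in wild-type hyperoxia. It read 7.35, 7.72, 8.01 and 7.61 in Fgf10+/- normoxia and 7.28, 7.24, 6.92 and 7.44 in Fgf10+/- hyperoxia. The groups were apart in wild type and overlapped in Fgf10+/-. It fell by 0.50 (SE 0.16, adjusted p = 0.0375) and by 0.45 (SE 0.16, adjusted p = 0.0488), close to the threshold. The wild-type call was lost without any one of 6 of the 8 arrays (normoxia replicates 2 and 3, all 4 hyperoxia replicates; adjusted p of 0.058 to 0.115), and the Fgf10+/- call without any one of 6 of 8 (normoxia replicates 2, 3 and 4, hyperoxia replicates 1, 2 and 3; 0.0742 to 0.145). The glycosylphosphatidylinositol-anchored Mmp17 was not called (-0.23 in wild type and -0.64, adjusted p = 0.107, in Fgf10+/-), and Mmp16, Mmp24 and Mmp25 were near background.

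Mmp23, a short membrane-anchored member that lacks the hemopexin domain, had the smallest p of all members in wild type. It read 9.01, 8.78, 8.58 and 8.80 in wild-type normoxia and 7.81, 8.22, 7.91 and 8.08 in wild-type hyperoxia. Its Fgf10+/- values were 8.93, 9.06, 8.93 and 8.82 in normoxia and 8.37, 8.11, 8.52 and 8.18 in hyperoxia. The groups were apart in both genotypes. It fell by 0.79 (SE 0.12, adjusted p = 0.00056) or 1.72-fold, and by 0.64 (SE 0.12, adjusted p = 0.00178) or 1.56-fold.

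Of the gelatinases, which degrade denatured and basement membrane collagens, Mmp2 is made mainly by mesenchymal cells and Mmp9 mainly by neutrophils and macrophages. Mmp2 read 10.52, 10.81, 10.75 and 10.94 in wild-type normoxia and 10.34, 10.24, 10.13 and 10.43 in wild-type hyperoxia. In Fgf10+/- it read 10.95, 11.08, 10.91 and 10.97 in normoxia and 10.92, 11.03, 10.82 and 11.16 in hyperoxia. The hyperoxia arrays were all below the normoxia arrays in wild type, and the groups overlapped in Fgf10+/-. Mmp2 fell by 0.47 (SE 0.11, adjusted p = 0.00762) in wild type, and the difference in Fgf10+/- was 0.01 (SE 0.11, adjusted p = 0.968) with a 95% interval of -0.23 to 0.24.

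Mmp9 was measured by 10 features, of which the brightest read 5.43, 4.74, 5.05 and 3.99 in wild-type normoxia, 5.58, 5.27, 4.46 and 5.01 in wild-type hyperoxia, 5.88, 4.37, 4.54 and 3.53 in Fgf10+/- normoxia and 5.50, 5.11, 4.61 and 5.57 in Fgf10+/- hyperoxia. Spread within groups was wide and all groups overlapped. Its differences of 0.27 (SE 0.43, adjusted p = 0.735) and 0.62 (SE 0.43, adjusted p = 0.355) were not past the threshold. The wild-type value was near 0 without replicate 4 of wild-type normoxia, the lowest array of that group (0.0035, adjusted p = 0.997). The neutrophil collagenase Mmp8 was not called either (0.10 and 0.22). Neutrophil marker lists spanned 6.91 to 8.82 in wild-type normoxia, 7.88 to 8.92 in wild-type hyperoxia, 7.36 to 9.07 in Fgf10+/- normoxia and 7.95 to 8.92 in Fgf10+/- hyperoxia.

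Mmp12, the macrophage elastase, read 3.20, 3.40, 2.30 and 3.67 in wild-type normoxia, 4.11, 3.15, 4.21 and 3.89 in wild-type hyperoxia, 4.08, 3.74, 3.37 and 4.05 in Fgf10+/- normoxia and 3.22, 3.19, 3.27 and 4.53 in Fgf10+/- hyperoxia. Only the last of these 16 values was above the median of the array. The differences were 0.70 (SE 0.35, adjusted p = 0.196) and -0.26 (SE 0.35, adjusted p = 0.664), and values at this level carry little signal over background. The macrophage marker list had a mean of 8.01 to 9.10 over all arrays, and its genes moved in opposite directions with hyperoxia. Marco rose by 1.75 and 2.03, while Siglecf fell by 1.58 and 1.42 and Lyz2 fell by 1.44 and 0.82 in wild type and Fgf10+/- (adjusted p of 0.000148 to 0.0111 over the 6 results). Their part in the Mmp12 values was not tested.

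Mmp11, a stromelysin of stromal cells that leaves the cell in active form, gave 2 answers. The brighter feature, which was the one tested, read 11.17, 10.96, 10.87 and 10.99 in wild-type normoxia and 11.18, 11.09, 11.18 and 11.26 in wild-type hyperoxia. In Fgf10+/- it read 10.65, 10.71, 10.53 and 10.70 in normoxia and 11.12, 11.13, 11.28 and 11.08 in hyperoxia. The Fgf10+/- groups did not overlap, with the normoxia arrays the lowest of all 16. By this feature Mmp11 rose by 0.50 (SE 0.09, adjusted p = 0.0008) in Fgf10+/-, and the wild-type difference was 0.18 (SE 0.09, adjusted p = 0.187). The second feature fell in both genotypes, by 0.28 (adjusted p = 0.0439 in a fit of all features) in Fgf10+/- and by 0.46 (adjusted p = 0.00323) in wild type. The direction of Mmp11 is therefore uncertain, and the mean of both features gave 0.11 (adjusted p = 0.4) in Fgf10+/-.

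Among the ADAMTS proteases, Adamts4, which cleaves aggrecan and versican, fell the most in both genotypes. It read 7.95, 8.54, 8.03 and 8.93 in wild-type normoxia and 7.26, 7.16, 7.10 and 7.42 in wild-type hyperoxia. In Fgf10+/- it read 8.997, 9.01, 8.77 and 9.01 in normoxia and 7.90, 7.99, 7.97 and 8.34 in hyperoxia. The groups were apart in both genotypes, and the highest wild-type value was on replicate 4 of normoxia. Adamts4 fell by 1.13 (SE 0.18, adjusted p = 0.000706) or 2.19-fold in wild type and by 0.90 (SE 0.18, adjusted p = 0.00263) or 1.86-fold in Fgf10+/-. Without replicate 4 of wild-type normoxia the wild-type fall was by 0.94 (adjusted p = 0.00125). A second, dimmer feature gave a fall by 1.13 (adjusted p = 0.00884) in wild type and a difference of -0.65 (adjusted p = 0.102) in Fgf10+/-. Of the other proteoglycan-cleaving members, Adamts1, Adamts5, Adamts8, Adamts9 and Adamts15 were above the median and none was called.

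Of the 3 procollagen N-proteinases, which remove the amino-terminal propeptide of fibrillar collagens, Adamts14 fell in both genotypes. It read 8.58, 8.93, 8.54 and 9.005 in wild-type normoxia and 8.10, 7.74, 8.19 and 7.94 in wild-type hyperoxia. The Fgf10+/- arrays gave 8.22, 8.76, 8.72 and 8.99 in normoxia and 7.55, 7.70, 7.76 and 8.17 in hyperoxia. The groups did not overlap in either genotype. The falls were by 0.77 (SE 0.18, adjusted p = 0.00757) and by 0.88 (SE 0.18, adjusted p = 0.0026). A second Adamts14 feature, near background at 3.62, was not called, and the mean of both features gave -0.15 (adjusted p = 0.755) in wild type.

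Adamts2, the main enzyme of this kind in skin, read 11.46, 11.73, 11.59 and 11.91 in wild-type normoxia and 11.18, 11.29, 11.35 and 11.44 in wild-type hyperoxia. In Fgf10+/- it read 12.32, 12.27, 11.90 and 12.20 in normoxia and 11.51, 12.02, 11.82 and 12.18 in hyperoxia. The wild-type groups were apart, the Fgf10+/- groups overlapped, and neither difference passed (-0.36 (SE 0.15, adjusted p = 0.111) and -0.29 (SE 0.15, adjusted p = 0.189)). Adamts3 was near background.

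Adamts7, which cleaves cartilage oligomeric matrix protein, was called in Fgf10+/-. It read 5.55, 5.54, 5.61 and 5.95 in wild-type normoxia and 5.39, 5.14, 5.66 and 5.13 in wild-type hyperoxia. Its Fgf10+/- values were 6.34, 5.94, 6.33 and 6.41 in normoxia and 5.54, 5.46, 5.69 and 5.22 in hyperoxia. The Fgf10+/- groups were apart and the wild-type groups overlapped. It fell by 0.78 (SE 0.15, adjusted p = 0.00199) in Fgf10+/-, the difference in wild type was -0.33 (SE 0.15, adjusted p = 0.151), and these 2 were not shown to differ (interaction -0.44 (SE 0.22, adjusted p = 0.756)).

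Adamts17, linked to fibrillin fibres through an inherited short-stature syndrome, read 10.08, 10.48, 10.08 and 10.26 in wild-type normoxia and 9.84, 9.80, 9.75 and 9.80 in wild-type hyperoxia. The Fgf10+/- arrays gave 10.28, 10.36, 10.13 and 10.32 in normoxia and 9.30, 9.88, 9.56 and 10.05 in hyperoxia. The groups did not overlap in either genotype. It fell by 0.58 (SE 0.14, adjusted p = 0.00958) in Fgf10+/-, and in wild type the difference of -0.43 (SE 0.14, adjusted p = 0.0534) just missed the threshold. A fit of the 8 arrays compared gave adjusted p = 0.0551 in Fgf10+/- and 0.0379 in wild type. The mean of all features of Adamts17 gave a smaller wild-type difference, -0.13 (adjusted p = 0.587). Adamts19, with 10 features, was not called (-0.31 and -0.41).

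Every called member whose groups did not overlap had an exact two-sided permutation p of 0.0286, and with 4 arrays against 4 no smaller p can be had. Markers of cell types also moved with hyperoxia. Of 7 lung fibroblast markers 2 fell and none rose in each genotype: Pdgfra fell by 1.45 and 1.49, and Lum fell by 1.63 and 1.44. The mean of that list was 8.98 to 9.56 in wild-type normoxia, 8.59 to 8.88 in wild-type hyperoxia, 9.30 to 9.48 in Fgf10+/- normoxia and 8.76 to 9.16 in Fgf10+/- hyperoxia. The mesothelial list was 7.32 to 8.11, 6.25 to 7.17, 7.12 to 9.18 and 6.58 to 8.84 in the same order, with 1 of 4 markers lower in each genotype and 1 higher in Fgf10+/-. Of 6 endothelial markers 2 fell in wild type and 3 in Fgf10+/-: Pecam1 fell by 0.97 and 0.69, Cdh5 fell by 0.28 and 0.25, and Emcn fell by 0.39 in Fgf10+/-. That list spanned 10.36 to 10.57, 10.12 to 10.39, 10.36 to 10.55 and 10.15 to 10.43. Of 5 smooth muscle markers 1 rose and 1 fell in wild type and 2 rose in Fgf10+/-. Of the epithelial lists, 4 of 5 club and 4 of 5 ciliated markers rose in each genotype, as did 3 and 4 of 5 alveolar type 1 markers. Among alveolar type 2 markers only Abca3 rose in wild type, by 0.30 (adjusted p = 0.0443). In Fgf10+/- only Abca3 and Sftpa1 of that list rose, by 0.52 and 0.53, and none fell in either genotype. Group means of the type 2 marker Sftpc were 15.98 to 15.99, and those of the club marker Scgb1a1 15.92 to 15.97. Both lie close to 15.99, the highest value of the arrays, where a rise could hardly show. The club list spanned 13.01 to 13.32, 14.00 to 14.26, 12.56 to 13.05 and 13.91 to 14.10. The ciliated list spanned 7.80 to 8.50, 9.001 to 9.55, 7.32 to 8.03 and 8.62 to 9.21. The part of these markers in the falls of Mmp14, Mmp15, Mmp23, Adamts4 and Adamts14 and in the rise of Timp4 was not tested.

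Pups labelled Fgf10+/- were then set against wild type, to ask whether the Fgf10 genotype alters these genes with and without extra oxygen. In normoxia no member was called by limma, against 0.719% of all genes (0.114% higher and 0.605% lower). An unadjusted p under 0.05 was reached by 7 of 45 members (12.9% of all genes), and the groups did not overlap for 2 (7.53% of all genes). With a mean-variance trend and robust estimation 2 members passed, where 2.15% of all genes were called. The smallest p belonged to Mmp11, whose tested feature differed by -0.35 (SE 0.09, adjusted p = 0.084), followed by Adamts7 at 0.59 (SE 0.15, adjusted p = 0.101) and Adamts2 at 0.50 (SE 0.15, adjusted p = 0.138). Without replicate 4 of wild-type normoxia Adamts4 passed, at 0.77 (adjusted p = 0.0284), where 1.45% of all genes were called.

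In hyperoxia 1 member was called, against 0.412% of all genes (0.293% higher and 0.119% lower), and 8 had an unadjusted p under 0.05 (9.02% of all genes). The groups did not overlap for 4 members (5.99% of all genes). The one called was Mmp2, which the values above show at 10.82 or more on every Fgf10+/- hyperoxia array and at 10.43 or less on every wild-type hyperoxia array. Mmp2 was higher by 0.70 (SE 0.11, adjusted p = 0.0169) or 1.62-fold in the arrays labelled Fgf10+/-. Fitting those 8 arrays by themselves ended the call (adjusted p = 0.188), in a fit where no gene at all was called. So did leaving out replicate 3 of wild-type hyperoxia (0.0613), replicate 2 of Fgf10+/- hyperoxia (0.0574) or replicate 4 of Fgf10+/- hyperoxia (0.0662). In the same order, these fits with an array left out called 0.0992%, 0.104% and 0.0645% of all genes. Next came Adamts4 at 0.82 (SE 0.18, adjusted p = 0.0905) and Adamts2 at 0.57 (SE 0.15, adjusted p = 0.151), both short of the threshold.

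Averaged over both oxygen conditions 3 of 45 members were higher with the Fgf10+/- label and none was lower. Of all genes 2.25% were called, 0.922% higher and 1.32% lower. An unadjusted p under 0.05 was reached by 13 members (14.2% of all genes). Mmp2 was higher by 0.46 (SE 0.08, adjusted p = 0.00696), Adamts4 by 0.70 (SE 0.13, adjusted p = 0.0118) and Adamts2 by 0.54 (SE 0.10, adjusted p = 0.0143). These 3 enzymes act on denatured collagen, proteoglycans and procollagen. A dim second Adamts2 feature did not share the difference, and the mean of both features gave 0.37 (adjusted p = 0.334). Over all 45 members the median difference was 0.15, against -0.00369 over all genes.

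**Figure D4:**
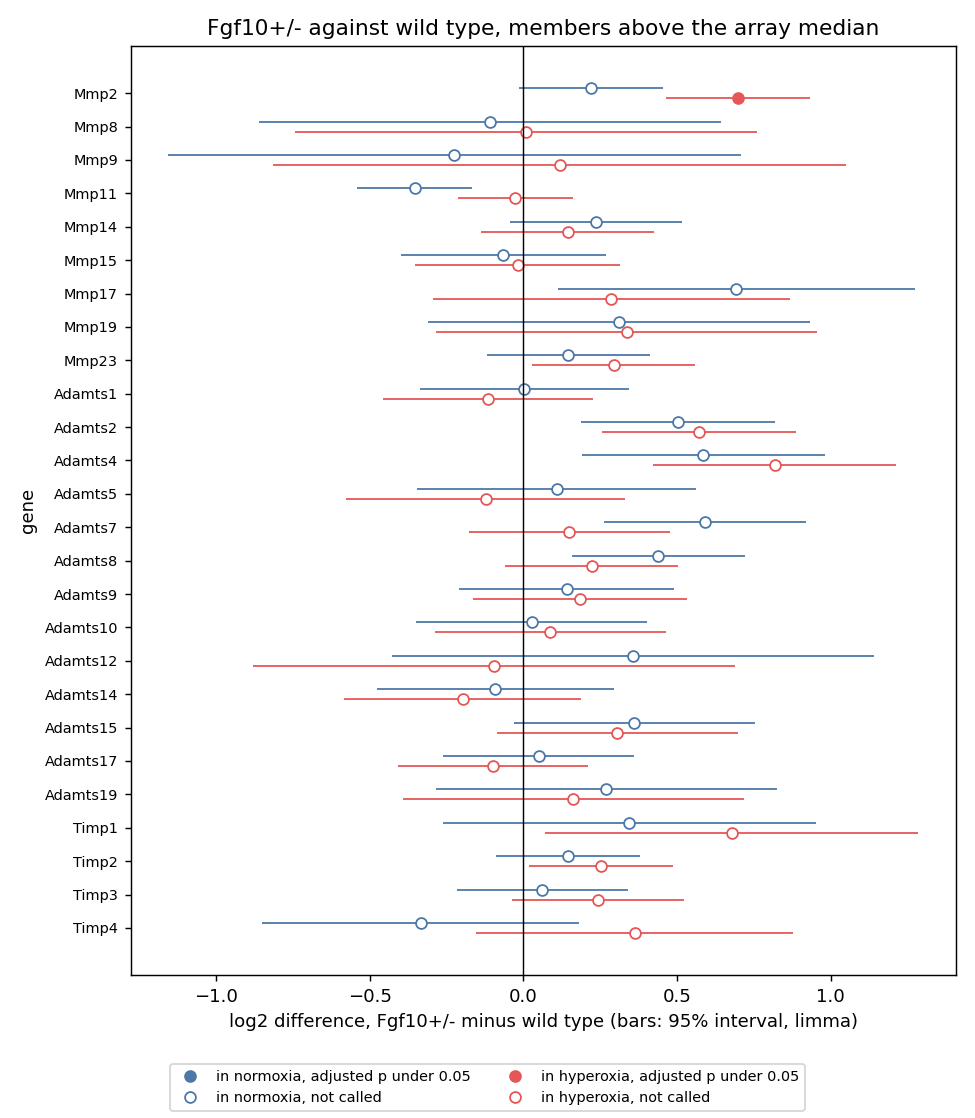
Log2 difference of Fgf10+/- minus wild type (horizontal axis, bars are limma's 95% intervals) for the 26 genes above the array median (vertical axis), in normoxia (blue) and in hyperoxia (red), with 4 arrays per group. Mmp2 in hyperoxia is the only filled point, which marks an adjusted p under 0.05, while Adamts2 and Adamts4 lie to the right of 0 in both conditions without passing.

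Beside these differences by genotype, 1 of the 7 fibroblast markers, Dcn, was higher in Fgf10+/- averaged over oxygen (0.65 (SE 0.14, adjusted p = 0.0277)). In the same comparison 4 of 6 alveolar type 2 markers were lower, with list means of 13.57 to 13.72 in wild-type normoxia and 13.63 to 13.76 in wild-type hyperoxia against 13.10 to 13.30 and 13.33 to 13.45 in Fgf10+/-. Their part in the higher Mmp2, Adamts4 and Adamts2 was not tested.

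Whether genotype altered the response to oxygen was asked through the interaction of both. No gene passed, members included. The smallest adjusted p among members was 0.628, and 4 of 45 had an unadjusted p under 0.05 (6.62% of all genes). Mmp2 had the smallest p, with a difference of 0.48 (SE 0.15, adjusted p = 0.628) between the 2 responses. The called fall in wild type and the difference near 0 in Fgf10+/- were thus not shown to differ. Adamts18 followed at 1.24 (SE 0.46, adjusted p = 0.711). This protease, near background in its mean, read 4.31, 3.84, 4.15 and 5.01 in wild-type normoxia, 3.83, 3.57, 3.57 and 4.64 in wild-type hyperoxia, 3.58, 4.14, 3.45 and 4.27 in Fgf10+/- normoxia and 3.99, 5.28, 4.61 and 4.81 in Fgf10+/- hyperoxia. Mmp11 was the third, at 0.33 (SE 0.12, adjusted p = 0.723) for the tested feature.

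Genes that act with or on the members were read from 4 lists, to be set beside the 19.1% and 23.8% of all genes called in wild-type and Fgf10+/- hyperoxia and the 2.25% called by genotype averaged over oxygen. Of 16 tested regulators of metalloproteinase activity, 1 rose and 4 fell in wild-type hyperoxia, and 3 rose and 3 fell in Fgf10+/- hyperoxia. Serpine2, an inhibitor of serine proteases that activate MMP precursors, fell by 1.44 (adjusted p = 1.87e-05) and by 1.57 (adjusted p = 6.38e-06). Reck, a membrane-bound inhibitor of MMPs including Mmp14, fell by 0.89 (adjusted p = 0.00119) and by 0.54 (adjusted p = 0.0198). Plaur, the urokinase receptor, rose by 1.15 (adjusted p = 0.00542) in Fgf10+/-, and the proteoglycan Spock2 rose by 0.47 and 0.63 (adjusted p = 0.0253 and 0.00352). Averaged over oxygen, Plat, the tissue plasminogen activator, Thbs2 and Serpine2 were higher in Fgf10+/- by 0.67, 0.78 and 0.42 (adjusted p = 0.00947, 0.0194 and 0.038).

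The ADAMTS-like proteins share the ancillary domains of ADAMTS enzymes and have no protease domain. Of 7 tested, 3 rose in each genotype and 1 fell in Fgf10+/-. Adamtsl4 rose by 0.98 and 1.27, Adamtsl2, which binds fibrillin, by 1.09 and 1.25, and Adamtsl5 by 0.56 and 0.85 (adjusted p of 1.89e-05 to 0.0293 over the 6 results). Papln fell by 1.17 in Fgf10+/- (adjusted p = 0.000608). Adamtsl2 was also higher in Fgf10+/- than in wild type averaged over oxygen, by 0.90 (SE 0.13, adjusted p = 0.0033). The difference was 0.98 (SE 0.19, adjusted p = 0.0389) in hyperoxia and 0.82 (SE 0.19, adjusted p = 0.0649) in normoxia. These 2 were not shown to differ (interaction 0.17, adjusted p = 0.942). Of 9 ADAM proteases, the membrane-bound shedding enzymes, 2 rose in wild type and 3 in Fgf10+/-. Adam28 rose by 1.22 and 1.60 and Adam9 by 0.33 and 0.33, while Adam8 rose by 0.82 in Fgf10+/-.

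Of 17 matrix substrates, 1 rose and 8 fell in wild-type hyperoxia, and 1 rose and 5 fell in Fgf10+/- hyperoxia. Versican (Vcan), a substrate of Adamts4, fell by 1.38 (adjusted p = 0.00146) and 1.59 (adjusted p = 0.000389). The fibrillins Fbn1 and Fbn2 fell by 0.85 and 0.52 in wild type and by 0.91 and 0.67 in Fgf10+/-. Elastin (Eln) was the one that rose, by 1.25 (adjusted p = 0.00432) and 0.97 (adjusted p = 0.0159). No substrate passed in the comparison of genotypes averaged over oxygen by limma, where 8 of 17 had an unadjusted p under 0.05 (14.2% of all genes).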

How the data were processed

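Total RNA of 16 lung homogenates was amplified, labelled with Cy3 and hybridised to 1-colour Agilent arrays, per the labels' protocols. The deposited table by the authors holds log2 values. Array medians of 4.4996 to 4.5003 and a common maximum of 15.99 read as quantile normalized. The background correction, normalization, slides and scan dates are not stated in the labels.

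Of 62976 features, 31465 had 1 gene symbol, brought up to date through RefSeq (GRCm38.p6) by accession (29036), current symbol (2075) or unique synonym (349), and 5 kept their name. Features above the 25th percentile of an array on at least 4 arrays and without a missing value were kept (33 values were missing, none in members), and the feature with the highest mean stood for each gene. Single features were also tested in a fit of 31453 named features. A single limma fit (3.58.1, R 4.3.3) with 1 coefficient for each group and all 16 arrays gave 6 contrasts, with 12 residual and 2.13 prior degrees of freedom. P-values were adjusted by Benjamini-Hochberg within a contrast and called under 0.05. Permutation tests of the correlations with neutrophil markers used scipy 1.17.1, and the exact permutation p-values of members were computed in R. The limma fit was tested on simulated data with known changes in wild-type hyperoxia, read in that contrast only. The other steps were not tested in this way. The labels name no pairing by replicate number, so no block was used in the fit reported.

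The members and lists were chosen with earlier results of these data known. Members called in any contrast are named. Values per array are given for Timp1 to Timp4, Mmp2, Mmp9, Mmp12, Mmp14, the 8 called members with the smallest p in each hyperoxia contrast and up to 4 in each other contrast (3 where none passed). Up to 4 genes of each pathway list with the smallest p in a hyperoxia contrast are named, with those called by genotype. Alternatives were another filter, another gene summary, 2 rescalings, other variance models, array weights, a replicate block, sex as a covariate, fits of only the compared groups, missing values kept (added after the data were seen) and each array left out.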

Additional observations from a re-analysis of the deposited data

Results flagged for a closer look

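In 124 groups of 4 arrays, 9 had an array far from the 3 others by Dixon's test, and about 5% are reached by chance. Examined in each group were the marker lists and the members with values per array given above, and no other member. Among members, Adamts4 read 8.77 on replicate 3 of Fgf10+/- normoxia, against 8.997 to 9.015 on the others. Mmp12 read 4.53 on replicate 4 of Fgf10+/- hyperoxia, against 3.19 to 3.27. Timp3 read 12.72 on replicate 2 of wild-type normoxia, against 12.21 to 12.29.

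Among marker lists, replicate 4 of wild-type normoxia had means of 8.96 for cartilage (4.38 to 4.55 on the others) and 8.72 for skeletal muscle (4.64 to 5.18). The club cell list was 13.32 on replicate 3 of wild-type normoxia (13.01 to 13.03). The macrophage list was 8.01 on replicate 4 of Fgf10+/- normoxia (8.92 to 9.07). The alveolar type 1 list was 11.58 on replicate 2 of Fgf10+/- hyperoxia (11.66 to 11.67), and the brown fat list was 4.44 on replicate 4 of Fgf10+/- hyperoxia (4.83 to 4.89).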

How the results depend on the processing

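Of 21 called results for single members, 13 kept their call under every alternative tried, and 17 kept it with each array left out in turn. No result reversed its sign while called. In normoxia the genotype comparison called 1 of 29 members with the filter at the 50th percentile (1.87% of all genes). It called 2 of 45 with trend and robust variance (2.15%) and 0 to 1 with an array left out. In hyperoxia it called 2 of 29 with the filter at the 50th percentile (0.834% of all genes) and 3 of 45 with trend and robust variance (1.11%). A fit of the groups compared alone called 0 members and no other gene. The comparison called 0 to 1 with an array left out, and 0 where 0.0645% to 0.104% of all genes were called. With an array left out, hyperoxia called 6 to 8 members in wild type and 8 to 11 in Fgf10+/-, genotype averaged over oxygen 3 to 4, and the interaction 0. Without replicate 4 of wild-type normoxia the averaged comparison called 4 members, where 3.01% of all genes were called. Same-numbered arrays had residual correlations of -0.029 to 0.087, against -0.138 to 0.062 for arrays of different numbers and groups. Such values cannot settle whether arrays of a number share a litter, slide or day. The replicate block called 7, 12, 0, 1, 3 and 0 members in the 6 contrasts and ended both Mmp15 calls (adjusted p = 0.0544 and 0.0677). Adamts17 in wild type passed under it (0.0344), as did Adamts18 in Fgf10+/- (0.0396). The share of all genes is not given beside the block counts, nor beside the other hyperoxia and averaged genotype counts with an array left out. Those counts only describe the calls. The causes of these shifts were not tested. Signal over background limits the 20 genes near background, of which none was called in any comparison of the fit reported.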

Other observations

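Mmp8 and Mmp9, both known from neutrophils, were set against the mean of 8 neutrophil markers over the 16 arrays after their values had been seen. The list holds neither gene. For Mmp8, Pearson's r was 0.738 (permutation p = 0.00108, adjusted over 2 relations 0.00108) and Spearman's rho 0.762 (permutation p = 0.00082, adjusted 0.00164). For Mmp9, r was 0.785 (permutation p = 0.00048, adjusted 0.00096) and rho 0.712 (permutation p = 0.00274, adjusted 0.00274). Without the 2 arrays farthest from the median of the list, r was 0.788 and 0.625. Deviations from the group means correlated at 0.748 and 0.817, and within the 4 groups r ranged from 0.328 to 0.966 for Mmp8 and from 0.444 to 0.991 for Mmp9. With 4 arrays a group, the values within single groups are a description only. Neither gene differed past the threshold by oxygen or genotype.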
